A study of Mus musculus with 4 samples.

Results

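Chromatin regulator genes are described here by the MyoD peaks assigned to them in mouse myotubes. Members were the genes whose symbol begins with Hdac, Smarc, Kdm, Setd, Prdm, Kat or Arid, or with Chd and a digit, in either deposited peak list. The rule used the symbol alone and found 40 of the 7262 gene IDs that the lists name: 5 Smarc, 7 Arid, 4 Chd, 6 Hdac, 2 Kat, 7 Kdm, 4 Setd and 5 Prdm genes. A gene is in a list only if a peak touches it, so every member has a peak in at least 1 list by construction. One member, Katnal1, fits by spelling alone: it encodes a katanin subunit that severs microtubules, and it is counted with the Kat genes and also left out in turn.

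MyoD is a basic helix-loop-helix factor that binds DNA and switches on muscle genes, and it was immunoprecipitated from myotubes grown from primary myoblasts of C57BL/6 mice aged 2 weeks. Myoblasts were grown in 20% serum, differentiated for 5 days in 2% horse serum, and then held for 24 hours in the same medium with pyruvate or without it; the amount of pyruvate and the number of mice are not given in the labels. The series holds 4 samples: each medium has 1 MyoD ChIP library and 1 input, of which the ChIP peak lists alone are used here. Which list belongs to which medium rests on the sample titles alone: a name given to the deposited lists can be read the other way round, and no value checks it. The list with pyruvate held 11907 peaks and the list without pyruvate 19338, of which 7452 and 11381 were assigned to a gene body or its 2000-base flanks. With 1 library per condition there is no replicate check and no test between conditions. The files give no read depth, and a site absent from one list may still have been bound at a level that was not detectable there.

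The labelled cell type was checked against genes of muscle and of other lineages. Of 14 muscle genes 11 were named in the lists, against 27.1% of all protein-coding genes in RefSeq: 9 had a peak in both lists, 2 only with pyruvate (Ckm and Myh3, named after their values were seen), and the other 3 in neither. Genes of other lineages carried peaks as well: 5 of 8 fibroblast, 2 of 5 adipocyte, 3 of 4 endothelial, 3 of 5 macrophage and 4 of 5 neuronal genes were named in the lists. Of these 17 genes, 9 had peaks in both lists (52.9%), 1 only with pyruvate (5.88%) and 7 only without (41.2%), against 55.1%, 9.94% and 35% of all genes named in the lists. A peak shows where the factor was detected and not which cells were present, so the makeup of the cultures was not tested.

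Chromatin regulators act by moving nucleosomes or by writing and erasing marks on histones. Most Smarc and several Arid genes encode subunits of SWI/SNF (BAF) complexes, which use ATP to open chromatin, and Chd genes encode another group of ATP-driven remodellers. Kat enzymes acetylate lysines and Hdac enzymes remove the acetyl group, while several Setd and some Prdm proteins methylate lysines and Kdm enzymes demethylate them. In muscle, the SWI/SNF subunit encoded by Smarcd3 (BAF60c) is known to associate with MyoD, Kat2b (PCAF) acetylates MyoD, and class IIa deacetylases bind MEF2 factors and hold muscle genes silent.

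The members carried 66 peaks in the list with pyruvate and 83 in the list without pyruvate. A peak in both lists was found for 27 of the 40 genes (67.5%), against 55.1% of all genes named in the lists. Peaks were seen only with pyruvate in 6 genes (15.0%, against 9.94% of all genes) and only without pyruvate in 7 (17.5%, against 35%). With Katnal1 left out, there were 62 peaks with pyruvate and 77 without, and 26 of 39 genes (66.7%) had a peak in both lists. Members with a listed body were longer, with a median of 89.7 kb against 47.7 kb for all genes with one. These shares were not matched for gene length, and the part of length in them was not tested. The count only without pyruvate was 4 with peaks of at least 250 bases. It was also 4 when only the widest 11907 peaks of the list without pyruvate were kept. In the same settings the count only with pyruvate was 4 and 9. Counting any overlap of 1 base or more, 47 of the 66 member peaks with pyruvate had a partner in the other list, which is 71.2% (95% Clopper-Pearson interval 58.7 to 81.7), against 71.5% of all peaks in a gene region. Without pyruvate 48 of 83 did, or 57.8% (46.5 to 68.6), against 46.9% of all. The share of all peaks lay inside the members' interval in both lists, just above its lower bound without pyruvate. These intervals cover counting error only.

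By family, the Hdac genes carried 13 peaks with pyruvate and 19 without, with 11 shared in each list, and the Arid genes 14 and 15, with 7 shared with pyruvate and 8 without. The Kdm genes had 10 peaks with pyruvate and 11 without (7 shared in each), and the Chd genes 7 and 13 (6 shared in each). The Kat genes had 7 and 10 (7 shared in each), the Smarc genes 7 and 6 (4 shared in each), the Prdm genes 5 in each list (3 shared) and the Setd genes 3 with pyruvate and 4 without (2 shared in each). The katanin gene Katnal1 carried 4 of the Kat peaks with pyruvate and 6 of those without. Peaks with no partner (with and without pyruvate) numbered 1 and 7 for Chd, 0 and 3 for Kat, and 2 and 8 for Hdac. They numbered 3 and 4 for Kdm, 7 and 7 for Arid, and 3 and 2 for Smarc. For Prdm they were 2 and 2, and for Setd 1 and 2. Over all peaks in gene regions, 2123 of 7452 had no partner with pyruvate and 6041 of 11381 without. With 3 to 19 peaks per family and list, family medians of width ran from 191 to 352 bases with pyruvate and from 192 to 429 bases without.

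**Figure D1:**
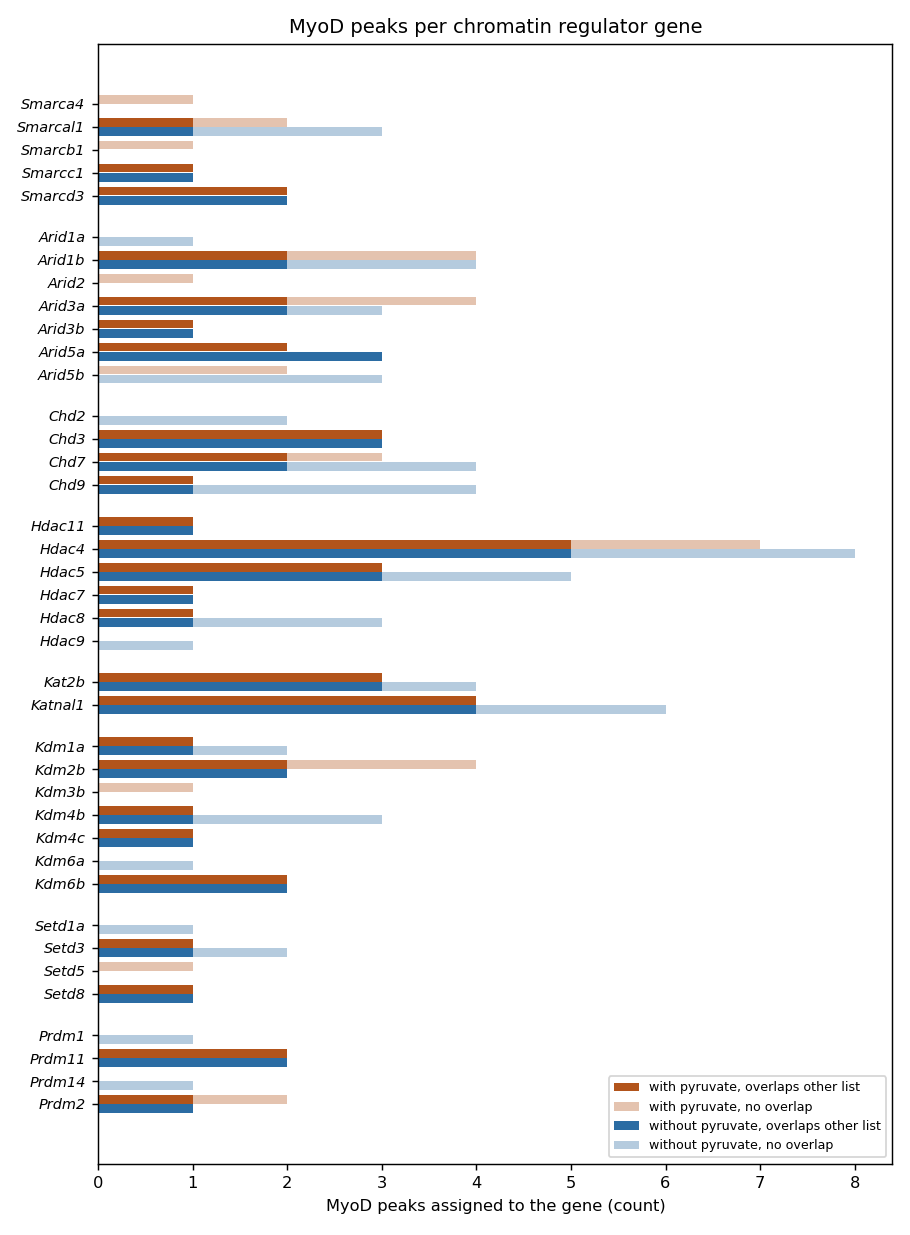
MyoD peaks assigned to each of 39 of the genes (count on the horizontal axis, genes by family on the vertical), with pyruvate above and without pyruvate below in each pair of bars. Solid parts are peaks that overlap the other list and pale parts those that do not; Hdac4 has the longest bars, 7 peaks with pyruvate and 8 without.

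The family genes were also set against all genes of similar length. The RefSeq gene table (GRCm38.p6, used for names and lengths) holds 99 protein-coding genes with these prefixes, katanin genes included, and 43 of them (43.4%) were named in the lists, against 27.1% of 21900 protein-coding genes. Those 43 include Kat14, Kat6a, Kat6b and Kat8, which the lists name by the older symbols Csrp2bp, Myst3, Myst4 and Myst1 and which the prefix rule therefore leaves out; the member Setd8 has another symbol in the table. Family genes in the lists had a median length of 81.0 kb and those absent 38.6 kb, and the median of all protein-coding genes was 17.1 kb. Under 20 kb, 4 of 16 family genes were named, against 13.9% of all genes. Between 20 and 50 kb 9 of 34 were, against 30.5%, and between 50 and 100 kb 12 of 25, against 45.5%. Between 100 and 200 kb 13 of 18 were named, against 62.2%, and from 200 kb upward 5 of 6, against 70.3%. Applying the shares of all genes in each length range to the family genes gives 39.4 genes, against the 43 found. Per 100 kb of listed gene body, flank peaks included, the 36 members with a listed body carried 1.56 peaks with pyruvate and 1.98 without, against 1.33 and 2.00 for all genes with a listed body.

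Smarcd3 had 2 peaks in each list, and both pairs overlapped. Its listed body is short, 11.2 kb, so this is 17.9 peaks per 100 kb in each list. The peak near the start was 449 bases wide with pyruvate (chr5:24106013-24106462 of mm9) and 504 bases without (chr5:24105985-24106489), and its centre lay 1.59 kb inside the gene in both lists. The peak near the end was 355 bases wide with pyruvate (chr5:24097165-24097520) and 475 bases without (chr5:24097122-24097597), and it is also assigned to the neighbouring gene Chpf2. Both Smarcd3 peaks were wider without pyruvate, with differences (with minus without pyruvate) of -55 and -120 bases. The start-side peak was at the 93.6 percentile of widths in the list with pyruvate and at the 96.5 percentile in the list without. The RefSeq gene is longer than the body listed in the files (31.8 kb), so the start site used here need not be that of the RefSeq gene. The count per 100 kb rests on the listed body too, and was not computed over the longer RefSeq length.

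Per length of listed body, the other Smarc genes were less densely covered. Smarcal1, an annealing helicase that is no SWI/SNF subunit, had a shared peak of 544 bases with pyruvate and 484 bases without, with its centre 10.4 kb from the start, plus 1 unshared peak with pyruvate (208 bases) and 2 without (281 and 248 bases). Smarcc1, a SWI/SNF scaffold subunit, had a shared peak of 212 bases with pyruvate and 145 bases without, where the narrowest peak of the whole list is 144 bases. The ATPase gene Smarca4 (BRG1) had 1 peak, of 272 bases, and the core subunit gene Smarcb1 1 peak, of 170 bases, both only with pyruvate. Neither lay within 2 kb of a start site.

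Chd9 carried the widest member peak of either list. With pyruvate it had 1 peak, of 999 bases (chr8:93400310-93401309), and 4 of the 11907 peaks in that list were wider. Without pyruvate it had 4 peaks, of 382 bases (chr8:93400290-93400672), 215, 192 and 160 bases. The 999-base and 382-base peaks overlapped by 362 bases, and the one with pyruvate reached 637 bases further into the gene. Of 5309 overlapping pairs of peaks in gene regions, 2 had a larger width difference in this direction. The pair lay 48.1 kb (with pyruvate) and 47.7 kb (without) from the start of a 226-kb gene, and the other 3 peaks without pyruvate had their centres 5.37, 40.7 and 65.6 kb from it.

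**Figure D2:**
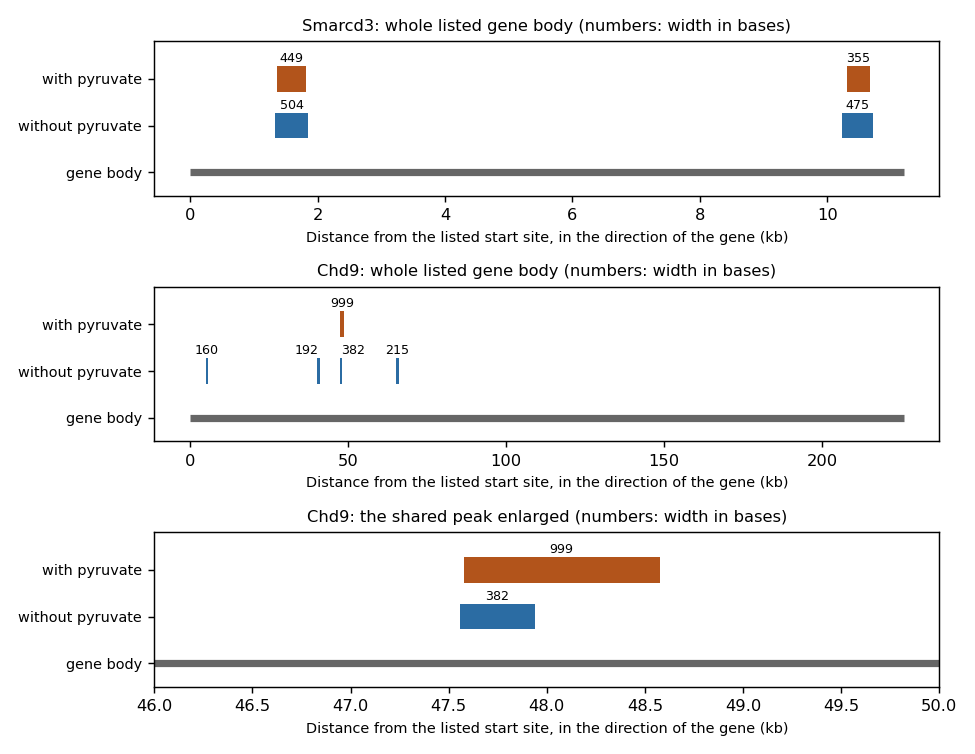
Peaks (coloured bars, widths in bases above them) along the listed gene bodies (grey) of Smarcd3 and Chd9, with pyruvate above without pyruvate; the horizontal axis is the distance from the listed start in kb, and narrow peaks in the whole-gene panels are drawn at a minimum visible width. Smarcd3 has peaks at matching places in both lists, and the shared Chd9 peak is 999 bases with pyruvate and 382 bases without.

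Among the other Chd genes, all peaks of Chd3, a NuRD remodeller, were shared. Its widest peak was 602 bases with pyruvate (chr11:69181450-69182052) and 569 bases without (chr11:69181479-69182048), with the near edge 876 and 880 bases from the start, and 2 narrower pairs were 244 and 211 bases with pyruvate and 178 and 160 bases without. Chd7 had 3 peaks with pyruvate and 4 without; 2 pairs overlapped, with widths of 352 and 355 bases with pyruvate and 355 and 369 bases without. Chd2 had 2 peaks, of 183 and 175 bases, only without pyruvate. Chd3 lies 29.1 kb from the member Kdm6b on chromosome 11, and the 5 peaks that this pair of genes carried in each list all had partners.

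Of the Arid genes, Arid5a had peaks nearest to its start. The nearer one was 272 bases wide with pyruvate (chr1:36364767-36365039) and 299 bases without (chr1:36364765-36365064), 189 and 187 bases from the start site. A further pair, about 1 kb inside the gene, was 210 bases wide with pyruvate and 234 bases without. A downstream peak of 247 bases is assigned to Arid5a only without pyruvate; it overlaps a 297-base peak with pyruvate that the file leaves without a gene. The RefSeq promoters of Arid5a and Chd9, from 250 bases before to 50 after the start (GRCm38.p6, with coordinates of that build), are shown to set the gene with the peak beside its start against one whose peaks lie kilobases away. Capitals mark E-boxes, the CANNTG letters that MyoD is known to bind.
Arid5a, chr1:36307483-36307782, plus strand: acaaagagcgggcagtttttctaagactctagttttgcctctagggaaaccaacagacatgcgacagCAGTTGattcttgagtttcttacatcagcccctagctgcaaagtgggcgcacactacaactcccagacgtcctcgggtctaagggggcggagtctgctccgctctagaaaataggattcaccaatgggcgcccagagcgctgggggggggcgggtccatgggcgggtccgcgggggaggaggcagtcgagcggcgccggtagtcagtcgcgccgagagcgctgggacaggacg
Chd9, chr8:90828585-90828884, plus strand: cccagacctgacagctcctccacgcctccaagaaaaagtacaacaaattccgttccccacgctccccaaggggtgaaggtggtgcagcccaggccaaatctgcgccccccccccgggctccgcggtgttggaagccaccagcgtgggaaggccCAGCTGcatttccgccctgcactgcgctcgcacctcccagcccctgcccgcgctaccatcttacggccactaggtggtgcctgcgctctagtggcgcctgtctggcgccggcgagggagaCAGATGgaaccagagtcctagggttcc

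The Arid5a window holds 1 E-box and the Chd9 window shown holds 2, of which 1 is CAGCTG. A second Chd9 promoter window in the table (chr8:90931999-90932298) holds 0. The general motif CANNTG (the same on both strands) was found in 72.3% of the 32544 distinct promoter windows and CAGCTG in 16.4%. The window reaches 50 bases past the start while the Arid5a peak lies 187 bases or more past it, and no sequence of the peaks themselves was used here. Of the 29 members with a promoter in the table, 21 had CANNTG in at least 1 of their windows and 11 had CAGCTG. Some genes have several windows, so these counts are not shares of windows.

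The remaining Arid genes encode SWI/SNF subunits or DNA-binding proteins outside that complex. Arid1b, a SWI/SNF subunit, had 4 peaks in each list, of which 2 pairs overlapped, one of 267 bases with pyruvate and 258 bases without and one of 277 bases with pyruvate and 159 bases without. The related subunit genes Arid1a (220 bases, only without pyruvate) and Arid2 (235 bases, only with pyruvate) had 1 peak each. Arid3b had a shared peak of 551 bases with pyruvate and 405 bases without, centred 5.31 and 5.24 kb from its start. Arid3a had 4 peaks with pyruvate and 3 without, and its widest pair was 454 bases with pyruvate and 415 bases without. Arid5b had 2 peaks with pyruvate and 3 without, and none overlapped, which made it the 1 gene of 27 with peaks in both lists but no shared peak.

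The Hdac peaks lay mostly in class IIa genes. All 4 class IIa genes were in the lists, with 11 peaks with pyruvate and 15 without, against 1 of 4 class I genes (Hdac8), 0 of 2 class IIb genes and the single class IV gene, Hdac11. This grouping was chosen after the values were seen, and the class IIa genes are long, from 34.4 to 869.5 kb in RefSeq, while the absent Hdac genes are 5.4 to 27.6 kb. Hdac4 had more peaks than any other member, 7 with pyruvate and 8 without, in 5 overlapping pairs spread along 216 kb. The pair with the widest peak was 351 bases with pyruvate and 441 bases without (chr1:93852871-93853222 and chr1:93852806-93853247). Hdac5 had 3 peaks with pyruvate, each with a partner, and 5 without, of 221 to 236 bases with pyruvate and 148 to 257 bases without. Hdac8, the class I gene, had 1 peak with pyruvate, of 234 bases, which overlapped 1 of 361 bases without, plus 2 peaks of 224 and 199 bases only without. Hdac7 had a shared peak of 344 bases with pyruvate and 316 bases without, and Hdac9 had 1 peak, of 266 bases, only without pyruvate. The Hdac11 peak was 306 bases wide with pyruvate and 265 bases without, and lies in a flank whose side, upstream or downstream, the files do not show.

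Kat2b had 3 peaks with pyruvate and 4 without, and 3 pairs overlapped. The widest was 444 bases with pyruvate (chr17:53735724-53736168) and 424 bases without (chr17:53735724-53736148), and the pair shares its first base. The other 2 pairs were 234 and 171 bases with pyruvate and 159 and 215 bases without. Katnal1, the katanin gene, had 4 peaks with pyruvate, each with a partner, and 6 without.

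Of the Kdm genes, Kdm6b and Kdm2b had peaks in both lists within 2 kb of the listed start. Kdm6b, which erases the methyl mark of polycomb silencing, had a peak upstream of the start that was 226 bases wide with pyruvate (chr11:69228370-69228596) and 192 bases without (chr11:69228377-69228569), and one inside the gene of 356 bases with pyruvate and 239 bases without. Kdm2b, a demethylase of a polycomb complex, had a peak of 272 bases with pyruvate (chr5:123464738-123465010) and 279 bases without (chr5:123464699-123464978), 79 and 111 bases from the start, and that peak is also assigned to the gene Orai1. A second Kdm2b peak near the start, of 262 bases, was seen only with pyruvate and is also assigned to Orai1. The listed body is 144.4 kb for Kdm2b and 15.2 kb for Kdm6b, against 118.6 and 21.9 kb in RefSeq. The start sites used here for these genes need not be those of the RefSeq genes. Further inside Kdm2b, a shared peak was 287 bases wide with pyruvate and 160 bases without, and a peak of 251 bases was seen only with pyruvate. Kdm1a (LSD1), Kdm4b and Kdm4c each had 1 shared peak inside the gene, of 216, 241 and 340 bases with pyruvate and 169, 237 and 251 bases without; Kdm1a had 1 further peak and Kdm4b 2 further peaks without pyruvate. Kdm6a had 1 peak, of 164 bases, only without pyruvate, and Kdm3b 1 peak, of 190 bases, only with pyruvate. The Kdm3b peak is also assigned to the gene Reep2. Of the 7 overlapping Kdm pairs, 6 were wider with pyruvate, or 85.7% (42.1 to 99.6), against 39.8% of all pairs in gene regions. The Kdm2b pair of 287 and 160 bases was so by construction, since the list with pyruvate has no peak under 169 bases. In other families, pairs wider with pyruvate were 7 of 11 for Hdac, 4 of 6 for Chd and 4 of 7 for Arid and for Kat. They were 2 of 4 for Smarc, 2 of 3 for Prdm and 1 of 2 for Setd.

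Setd8, a histone H4 methyltransferase, had a shared flank peak of 191 bases with pyruvate and 200 bases without, and Setd3, which is known to methylate actin, a shared peak of 272 bases with pyruvate and 240 bases without. Setd5 had 1 peak, only with pyruvate, and at 169 bases it had the narrowest width in that list. Setd1a had 1 flank peak, of 216 bases, only without pyruvate, which is also assigned to Hsd3b7. Prdm11 had 2 shared peaks, of 508 and 304 bases with pyruvate and 458 and 292 bases without, and Prdm2 one of 413 bases with pyruvate and 498 bases without. Setd3 had 1 more peak without pyruvate (199 bases) and Prdm2 1 more with pyruvate (194 bases). Prdm1, a repressor best known from plasma cells, had a peak of 429 bases only without pyruvate, and Prdm14, known from germ cells, one of 236 bases only without pyruvate.

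The 13 genes seen in 1 list had few peaks: 12 of them had 1 peak and Chd2 had 2. They included Smarca4, Smarcb1, Arid2, Kdm3b and Setd5 with pyruvate, and Arid1a, Chd2, Hdac9, Kdm6a, Setd1a, Prdm1 and Prdm14 without. Their widths were 169 to 272 bases with pyruvate and 164 to 429 bases without. Over all members, peaks with no partner had a median width of 208 bases with pyruvate (19 peaks) and 209 bases without (35 peaks), and peaks with a partner had one of 272 bases with pyruvate and 265.5 bases without. Over all peaks in gene regions, those with no partner had medians of 217 bases with pyruvate and 211 bases without, and those with a partner 264 bases with pyruvate and 284 bases without. Over all member peaks the median width was 256.5 bases with pyruvate (interquartile range 217 to 349) and 237 bases without (187 to 295.5), against 249 and 239 bases for all peaks in gene regions.

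**Figure D3:**
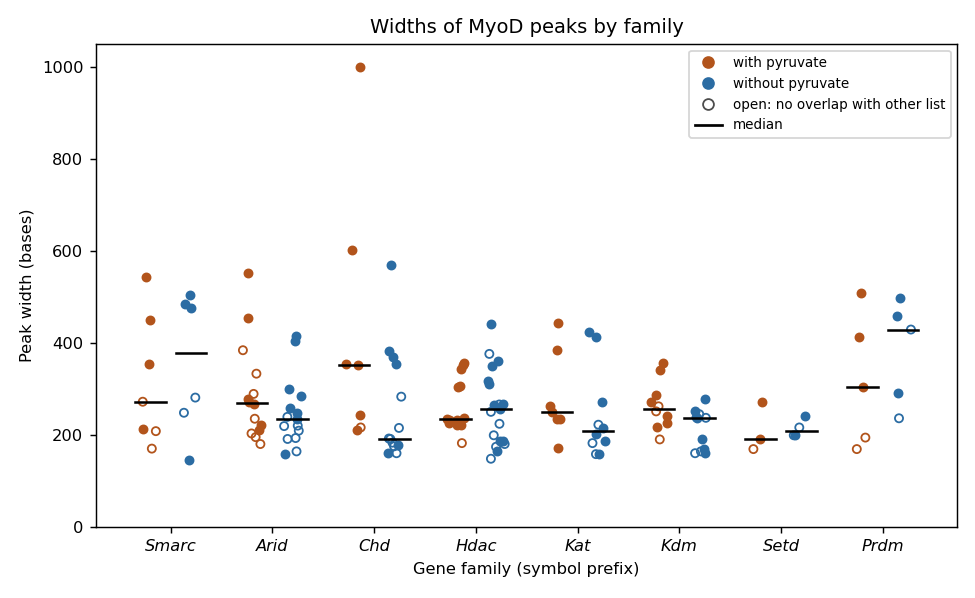
Width in bases of every member peak, by gene family, with pyruvate left of without pyruvate; filled points overlap the other list, open points do not, and lines are medians. The Chd9 peak of 999 bases with pyruvate stands above all others, and open points lie mostly below 300 bases.

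Overlapping pairs gave a comparison of width at the same site. Of the 47 member pairs, 30 were wider with pyruvate and 17 wider without, so 63.8% (48.5 to 77.3) were wider with pyruvate, against 39.8% of the 5309 pairs in gene regions. The median difference (with minus without pyruvate) was 32 bases for members and -18 bases for all pairs. Among members, 14 pairs were over 1.25 times as wide with pyruvate and 6 were under 0.8 times, or 29.8% and 12.8%, against 15.6% and 27.6% of all pairs. The 26 genes with a pair were not independent sites, since several pairs lie in 1 gene; in 19 of the 26 the median pair was wider with pyruvate. The narrowest peak was 169 bases in the list with pyruvate and 144 bases in the list without. A pair whose peak without pyruvate was under 169 bases was therefore wider with pyruvate by construction. Such pairs, Smarcc1 (145 bases without pyruvate) among them, were kept in the counts for members and for all pairs. Pairs of at least 250 bases in both lists were wider with pyruvate in 58.3% of cases (36.6 to 77.9), an interval that takes in the 37.9% of all such pairs. The width of a called peak also moves with sequencing depth, which is unknown for both libraries; its part in the difference was not tested. The comparison of pairs was chosen after values were seen.

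**Figure D4:**
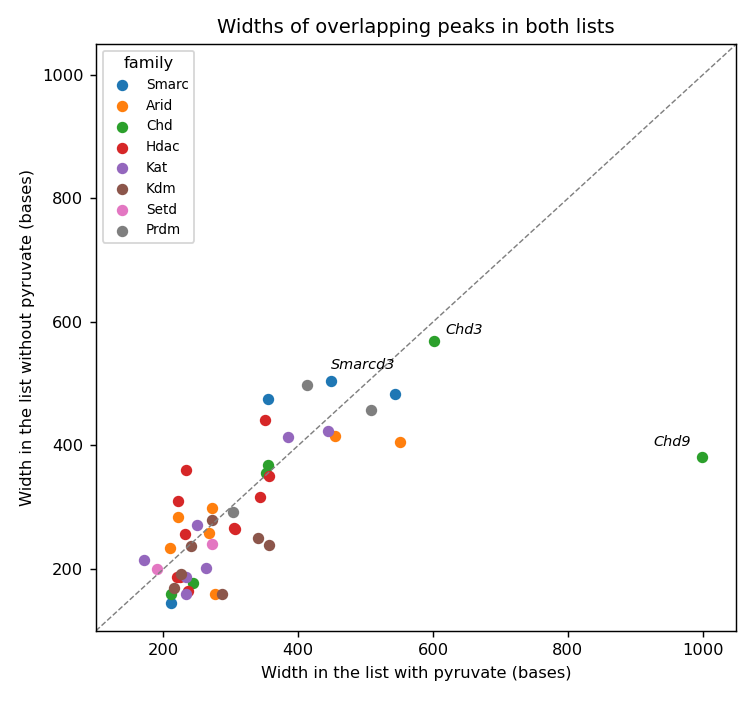
Width of each of the 47 overlapping member pairs in the list with pyruvate (horizontal axis, bases) and in the list without pyruvate (vertical axis, bases), coloured by family; the dashed line marks equal width. Of the points, 30 lie below the line (wider with pyruvate), with Chd9 farthest from it, and 17 above.

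Most member peaks were inside genes and away from starts. Peaks within 2 kb of a located start, or in a flank of unknown side, were counted as promoter-proximal, and such a peak was found for 9 of the 40 genes with pyruvate (22.5%, against 24.7% of all genes) and 8 without (20.0%, against 36.4%). Of these, 7 genes had one in both lists (against 18.8% of all genes): Smarcd3, Arid5a, Chd3, Hdac11, Kdm2b, Kdm6b and Setd8. Another 2 genes, Kdm3b among them, had one only with pyruvate (5.88% of all genes) and Setd1a only without (17.6% of all genes). Hdac11, Setd8, Kdm3b and Setd1a count only through a flank of unknown side, so their peaks may lie downstream of the gene. At located starts alone, 5 genes had one in both lists (against 10.1% of all genes). There was 1 gene only with pyruvate (2.91%) and 0 only without (9.03%). Of the 5, Smarcd3, Kdm2b and Kdm6b have a listed body over 5% off the RefSeq length, so their starts may differ from the RefSeq starts. These counts move with the definition: within 1 kb of located starts they were 3 with pyruvate and 3 without, and with peaks of at least 250 bases 5 and 5. With the list without pyruvate cut to its widest peaks, as many as the other list holds, the count without pyruvate was 5. The shares given here were not matched for gene length. By peaks, 11 of 66 with pyruvate were promoter-proximal, or 16.7% (8.62 to 27.9), against 22.3% of all peaks in gene regions, and 9 of 83 without pyruvate, or 10.8% (5.08 to 19.6), against 21.4%.

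Within gene bodies, 30 of 62 member peaks with pyruvate and 38 of 78 without had their centre in the part nearest the start when the body was cut into 3 equal lengths, or 48.4% and 48.7%. Over all genes these shares were 37.2% and 38.5%. No interval was computed for the shares by position, so their counting error is not shown. Many member sites are in both lists, so the member shares of the lists are not independent. The median distance of the centre from the start was 21.5 kb with pyruvate and 27.6 kb without, against 34.7 and 36.2 kb over all genes, and the farthest was 336.5 and 336.6 kb, at the same Arid1b pair. Distances rest on the gene bodies in the files: 29 of the 36 located members had a body within 5% of the RefSeq length, and Hdac4, Hdac9, Katnal1, Kdm2b, Kdm6b, Smarcal1 and Smarcd3 did not. Other genes overlap some of these sites, and 17 member peaks with pyruvate and 18 without were also assigned to a second gene.

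**Figure D5:**
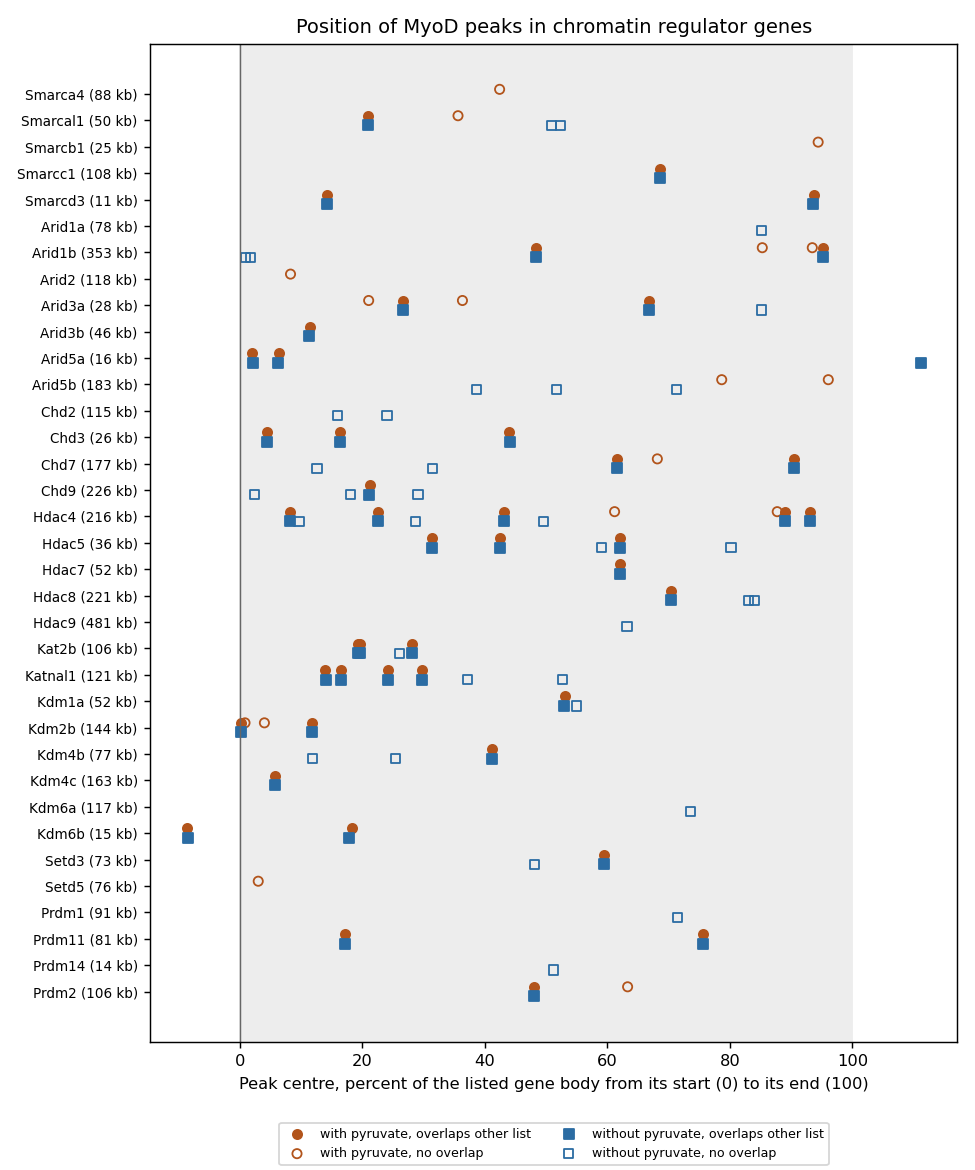
Centre of each peak as a percentage of the listed gene body, from the start at 0 to the end at 100 (grey), for 35 of the members with a listed body; circles are with pyruvate, squares below them without pyruvate, and filled symbols overlap the other list. Filled pairs line up between the lists, and Kdm6b has the pair upstream of the start.

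For member peaks with no partner, the nearest peak of the other list was a median of 12.7 kb away with pyruvate and 27.5 kb without, against 16.5 and 36.4 kb for all such peaks in gene regions. Within 1 kb lay 1 of 19 with pyruvate and 2 of 35 without, against 9.75% and 5.61% of all such peaks: the Kdm2b peak of 262 bases with pyruvate (694 bases) and single peaks of Kdm1a (764 bases) and Hdac5 (901 bases) without.

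Other chromatin genes were counted from 12 further lists of 132 genes, which hold partners of these families. Of them, 52 (39.4%) were named in the files, against 27.1% of all protein-coding genes. Peaks were seen in both lists for 33 (63.5% of the 52, against 55.1% of all genes named), only with pyruvate for 5 (9.62%, against 9.94%) and only without for 14 (26.9%, against 35%). The single lists are short, and their counts are given as values with no reading against these shares. All 6 bromodomain genes in the files had peaks in both lists, among them Brd3 (the widest peak 506 bases with pyruvate and 407 bases without). The coactivator genes Crebbp, Ncoa1 and Ncoa2 also had peaks in both. Of the Smyd methyltransferases, Smyd1, which is needed in muscle, had 3 peaks with pyruvate and 2 without (the widest 461 bases with pyruvate and 359 bases without), and Smyd3 had 3 with pyruvate and 10 without. Of 22 polycomb genes 8 were in the files, 5 in both lists and 3 only without pyruvate. Of 7 sirtuin genes only Sirt2 was, with 2 peaks seen only with pyruvate. The remaining lists hold further SWI/SNF subunits (4 of 16 genes in the files), corepressors (6 of 16), Kmt2 genes and their partners (7 of 11), histone H3K9 methylation and HP1 genes (2 of 8), DNA methylation genes (4 of 11), arginine methyltransferases (4 of 7) and INO80 or related remodellers (3 of 11). Of the DNA methylation genes, Dnmt1 had peaks in both lists (234 bases at the widest with pyruvate and 292 bases without), Tet3 only with pyruvate and Dnmt3a and Tet1 only without pyruvate.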

How the data were processed

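Peak lists came from 1 MyoD ChIP library per condition (antibody SC-760, per the labels' protocols); the inputs have no file used here. The submitters' processing notes name the build mm9 and 3 tools: the base-call converter bcl2fastq 2.19, the aligner Bowtie2 2.1.0 and the peak caller MACS2 2.1.1. The calling threshold, any use of the inputs and the source of the gene models are not stated. Libraries had 15 PCR cycles and fragments of about 250 bp with adapters, per the labels' protocols. The deposited score columns, one of them named fold enrichment, carry no information, since 0 values differ from 0, and peak width, the end minus the start as deposited, was the only per-peak measure.

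Rows were reduced to distinct peaks, and a peak belonged to every gene whose body or 2000-base flank the file lists for it. Start sites came from listed bodies and strands. Peaks of the lists were called shared at 1 base of overlap; pairs are mutual best partners. Where an interval is printed beside a share, it is a 95% Clopper-Pearson interval, for counting error only. The rule on named genes allowed every member, Smarcd3 and Chd9 in full, and up to 3 genes of a further list by widest peak (Tet3 was added after its values were seen); members and lists were chosen with earlier results of these data known. All 40 member symbols matched the RefSeq table, 39 by current symbol. Overlap code was tested on simulated data. Versions were scipy 1.17.1, pandas 2.3.3, matplotlib 3.10.9 and numpy 2.4.6 under Python 3.11.15. Results for 1 member and a few genes of the further lists are not reported here by name, though they stay in the counts.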

Additional observations from a re-analysis of the deposited data

How the results depend on the processing

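Of 41 alternatives, 30 stayed within their bounds, 11 moved and 0 reversed. Those on pair widths were added after seeing the data. The bounds were wide for gene counts: genes in both lists went from 27 to 18 with peaks of at least 250 bases and still counted as within them. In one setting the list without pyruvate was cut to its widest peaks, as many as the other list holds. Then 48.5% of member peaks with pyruvate and 68.8% without were shared. Genes seen in 1 list were 9 only with pyruvate and 4 only without, against 6 and 7 with all peaks. In that setting 5 genes had a promoter-proximal peak without pyruvate. With peaks of at least 250 bases, 70.6% without pyruvate were shared, and 4 genes were seen only with pyruvate and 4 only without. Promoter-proximal genes were then 5 with pyruvate and 5 without. At 1 kb of located starts these were 3 and 3, and with located starts alone 5 without pyruvate. Each of these settings removes peaks or narrows the window by construction. Pairs wider with pyruvate made up 58.3% to 65.1% over their 3 alternatives. No paired analysis was possible because each condition has 1 library. The small numbers per family, from 3 to 19 peaks per list, and the unknown depth limit every count.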
